A study of Gallus gallus with 24 samples.

Results

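Control hearts were set against control livers of chicken to find the genes that mark each organ in unexposed birds. The libraries were chosen by their labels alone: 6 control hearts and 6 control livers, 12 of the 24 chicken libraries analysed. The birds were female broilers from a commercial hatchery, kept 10 to a pen on litter and sampled in week 5. The control birds ate a diet without Sal, the ionophore feed additive of the study, and each group held 6 birds. The other 12 libraries came from hearts and livers of Sal-exposed birds, which received Sal in the feed after a Sal-free rearing period. They serve here to repeat the comparison and to test, over all 24 libraries, whether the difference between the organs depends on the exposure. Their shares of counts in the marked genes are also given. Which region of either organ was taken is not given in the sources used here. Whether a heart and a liver of the same number came from one bird is not stated either. By the methods both organs were taken from the 6 birds of a group, so its hearts and livers share birds. The main fit and the exact permutation tests treat the 12 libraries as independent. Heart RNA was extracted after homogenization in RNA Extracol and liver RNA after homogenization in the lysis buffer of the kit, so that the homogenization and the organ cannot be told apart.

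The heart is a pump built of striated muscle. Its cardiomyocytes shorten when calcium, released through ryanodine receptors of the sarcoplasmic reticulum, lets myosin heads pull on actin filaments, and they draw nearly all their ATP from mitochondria. The liver is a gland of metabolism. Its hepatocytes secrete most plasma proteins, make bile acids, release glucose, break down amino acids and modify foreign compounds. In birds the liver is also the main site of fatty acid synthesis, and surplus nitrogen leaves the body as urate, which is built through the purine pathway.

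Gene values are given as CPM, the counts of a gene scaled by TMM to a common library total, without correction for gene length. The depth lay between 33.1 and 42.3 M counts per library in control hearts, against 31.4 and 41.2 M in control livers (p = 0.292, two-sided exact permutation test). The genes of the mitochondrial genome took 41.6% ± 3.51 of the counts in control hearts and 17.2% ± 8.09 in control livers (SD, n = 6 each, p = 0.00216, two-sided exact permutation test). That p is the smallest that 6 against 6 libraries can give. At least 1 count was found for 14569 ± 49.4 genes in control hearts and 13866 ± 863 genes in control livers (SD, n = 6 each, p = 0.00649, two-sided exact permutation test). The p was 0.0625 with same-numbered pairs (exact sign-flip test), and between 0.0519 and 0.0671 when 1 heart was left out (exact permutation test). The difference of 704 genes was 188 without control livers 1 and 6, of which control liver 6 had 12355 genes and control liver 1 had 13311. Hearts resembled each other more than livers did: r over log2 CPM was between 0.961 and 0.986 for pairs of hearts, between 0.873 and 0.958 for pairs of livers and between 0.444 and 0.518 for a heart with a liver. These correlations are across genes, which are not independent replicates. The first principal component carried 80.9% of the variance and parted the organs, while the second, with 7.21%, set control liver 6 apart.

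Livers held traces of heart transcripts, unevenly. Over the 117 heart-marked genes of at least 100 CPM, the median level in a liver, as a percentage of the mean in hearts, was 0.246, 0.416, 0.598, 0.529, 1.21 and 0.0333% in control livers 1 to 6, so that control livers 3, 4 and 5 were the highest by this median. The lower quartile over these genes was 0.681% in control liver 5 and 0.227% in control liver 4, against 0 to 0.0774% in the other 4 livers. The reverse measure, the median level of 254 liver-marked genes in a heart, was between 0.0713 and 0.108% of their mean in livers. Both gene sets were chosen for a low level in the other organ, which limits these percentages. By the share of counts in all 315 heart-marked genes, control livers 5 and 2 were the highest, at 0.0779 and 0.0567%, against 0.0278 to 0.0528% in the other 4 livers. ACTC1, the cardiac muscle actin, had 58.956 CPM in control liver 5 and 18.835 CPM in control liver 4, against 0.033 to 2.5586 CPM in the other 4 livers. The fold change of a heart gene has these traces as its denominator, and values without control livers 3, 4 and 5 are therefore given beside the groups of heart genes. As these livers were the highest by the median above, leaving them out can raise the folds of heart genes through that choice alone. In that setting 88 of the heart-marked genes had 0 to 3 counts over the remaining livers, and the fitted log2FC of such a gene depends on the prior count and is no bound. Where the traces came from was not tested.

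**Figure D1:**
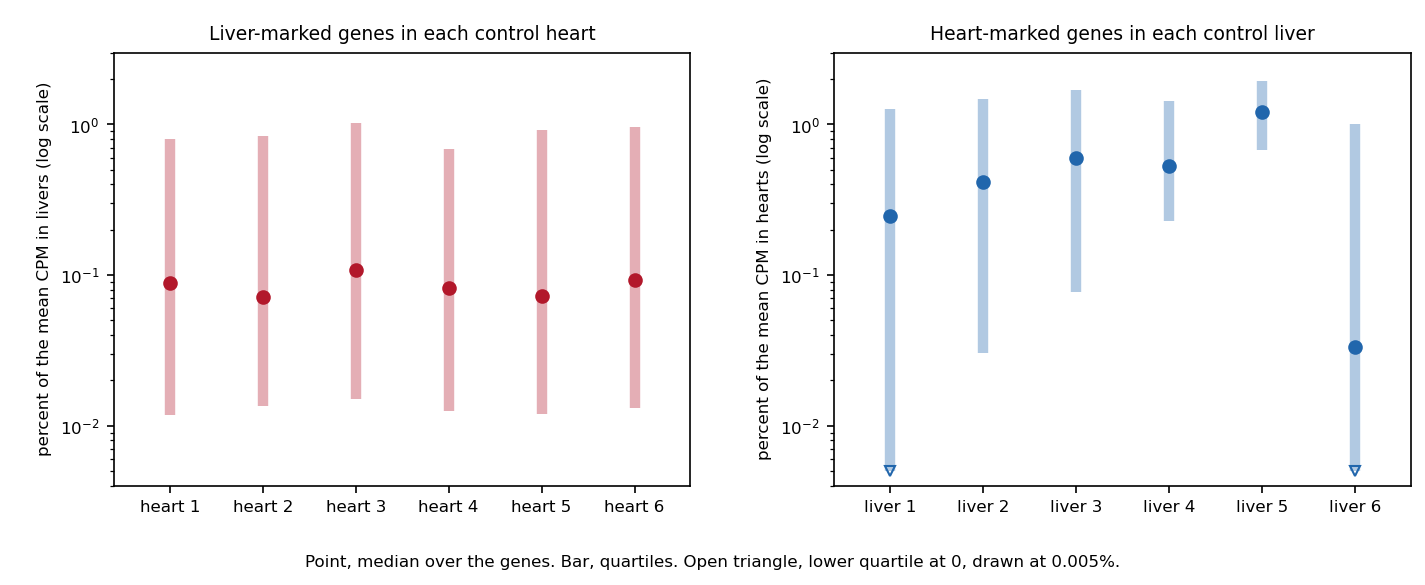
Transcripts of the other organ in each library. The vertical axis is the CPM of a gene as a percentage of its mean CPM in the organ it marks (log scale), for liver-marked genes in control hearts 1 to 6 and for heart-marked genes in control livers 1 to 6. Points are medians and bars run between the quartiles over the genes, 254 for hearts and 117 for livers, and an open triangle marks a lower quartile at 0. The medians lie between 0.0713 and 0.108% in hearts, and between 0.0333% in control liver 6 and 1.21% in control liver 5.

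Of 14121 genes tested, 7172 were called between the organs, which is 50.8%. A DE gene was called at an adjusted p (p-adj) of at most 0.05 with an absolute log2FC of at least 1, heart over liver. There were 3797 DE genes higher in control hearts (26.9%) and 3375 higher in control livers (23.9%). The median log2FC of all genes tested was 0.06. Scaling by library size alone moved that median by 0.51 and gave 5202 genes higher in control hearts and 2379 higher in control livers, so that 68.6% of the calls were then higher in hearts, against 52.9% with TMM. The levels of 7471 genes did not overlap between the 6 hearts and the 6 livers (52.9%). The 95% interval of log2FC lay within 1 of 0 on either side for 3341 genes.

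Because almost any gene may differ between 2 organs, a gene was taken to mark an organ only with an absolute log2FC of at least 5, a mean of at least 10 CPM there and no overlap between the libraries. By this rule 315 genes marked the heart (2.23% of those tested) and 459 marked the liver (3.25%). The heart-marked genes together held 12.2% ± 0.429 of the counts in control hearts and 0.0491% ± 0.0177 in control livers (SD, n = 6 each). The liver-marked genes held 0.166% ± 0.0399 in control hearts and 44.9% ± 2.71 in control livers. The median log2FC was 7.03 over the heart-marked genes and -8.64 over the liver-marked genes, and without control livers 3, 4 and 5 it was 7.78 and -8.6. A log2FC of 10 or above was seen for 15 heart-marked genes, and one of -10 or below for 175 liver-marked genes. The count of 15 depended on the livers included: it was 80 without control liver 5, 9 without control liver 1, 111 without control livers 3, 4 and 5 and 8 without control livers 1 and 6. It was also 47 with library size alone, 43 with the replicate block and 54 with surrogate variables, while the count of liver-marked genes lay between 158 and 179 in these settings. No count at all was seen over the 6 hearts for 15 of the liver-marked genes, and over the 6 livers for 1 of the heart-marked genes.

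The 10 heart-marked genes with the largest fold, among those with a symbol and at least 100 CPM, were mostly genes of striated muscle. MB, which encodes the oxygen carrier myoglobin, lies on chromosome 1, 52046537 to 52050255 (GRCg7b). It had 522 to 1501 CPM in control hearts (median 1138), against 0 to 6.88 CPM in control livers (median 0.201) (log2FC = 9.75 ± 1.32, p-adj = 1.59e-05, edgeR). ACTN2, the actinin that anchors actin at the Z-disc, lies on chromosome 3, 37299209 to 37364491 and had 1527 to 1825 CPM in control hearts (median 1723), against 0 to 8.75 CPM in control livers (median 0.332) (log2FC = 9.61 ± 1.24, p-adj = 9.77e-06, edgeR). CASQ2, which binds calcium inside the sarcoplasmic reticulum, had 394 to 538 CPM in control hearts (median 439), against 0 to 2.43 CPM in control livers (median 0.313) (log2FC = 9.56 ± 0.86, p-adj = 2.49e-07, edgeR). The hearts lay far above every liver for each of these 3 genes. MYH7B, a myosin heavy chain, had 604 to 1226 CPM in control hearts (median 674), against 0 to 3.84 CPM in control livers (median 0.283) (log2FC = 9.62 ± 1.05, p-adj = 1.89e-06, edgeR). SMPX, a small protein of striated muscle, had 114 to 158 CPM in control hearts (median 121), against 0 to 0.609 CPM in control livers (median 0.0492) (log2FC = 9.56 ± 0.66, p-adj = 1.85e-08, edgeR). APOBEC2 belongs to a family of cytidine deaminases and TECRL is a protein of the endoplasmic reticulum. APOBEC2 had 100.4 to 148 CPM in control hearts (median 131), against 0 to 0.571 CPM in control livers (median 0.0492) (log2FC = 9.95 ± 0.63, p-adj = 7.76e-09, edgeR). TECRL had 241 to 437 CPM in control hearts (median 343), against 0 to 1.902 CPM in control livers (median 0.0507) (log2FC = 9.91 ± 0.98, p-adj = 6.82e-07, edgeR). ACTBL2, HSPB7L and ASB18 completed the 10, with a log2FC of 9.78, 9.56 and 9.64. Leaving out control livers 3, 4 and 5 gave MB a log2FC of 14.33, ACTN2 one of 13.63 and CASQ2 one of 12.19. The order and the make-up of the 10 depended on these livers. In that setting CKMT2 at 16.34 and NPPA at 15.44, which are not among the 10, lay above MB, ACTN2 and CASQ2. For a gene with 0 to 3 counts over control livers 1, 2 and 6, such a value depends on the prior count. The order in that setting is therefore not an order of measured folds.

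**Figure D2:**
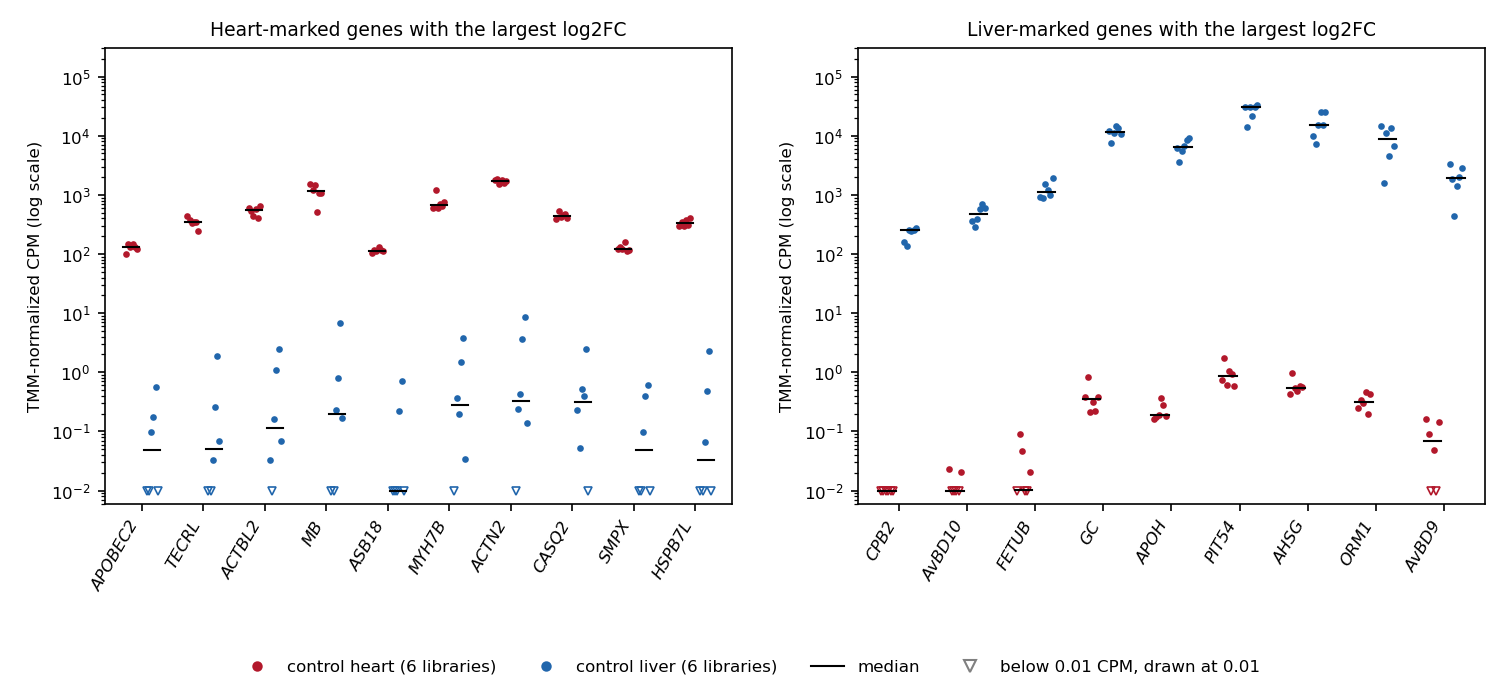
Levels of genes among those with the largest fold in each direction. The vertical axis is TMM-normalized CPM on a log scale, each point is 1 library, and open triangles stand for levels below the lower end of the scale. Control hearts are drawn left of control livers for each gene. The rule that chose these genes allows no overlap between the organs.

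Sarcomere and Z-disc genes had the highest median of the heart pathway lists: 37 of 40 were called higher in control hearts, 1 was called higher in control livers and 2 were not called, with a median log2FC of 8.55. Among all genes tested 26.9% were called higher in hearts. The summed level of the group was 48594 to 63466 CPM in control hearts, against 315 to 799.97 CPM in control livers. MYH15, a myosin heavy chain, took the most counts of any nuclear gene in hearts, with 12320.5 to 18389.7 CPM in control hearts (median 13672), against 0.165 to 92.96 CPM in control livers (median 3.699) (log2FC = 9.44 ± 1.46, p-adj = 5.27e-05, edgeR). ACTC1 had 8613 to 11583 CPM in control hearts (median 9633), against 0.03302 to 58.96 CPM in control livers (median 1.54) (log2FC = 9.52 ± 1.59, p-adj = 1.10e-04, edgeR). TTN encodes titin, the spring that spans the sarcomere from Z-disc to midline. It had 3031 to 3851 CPM in control hearts (median 3379.9), against 0 to 19.02 CPM in control livers (median 0.962) (log2FC = 9.51 ± 1.36, p-adj = 2.59e-05, edgeR). TNNI1, a troponin I that holds contraction in check between beats, had the largest log2FC of the group over the 12 libraries, with 10.97 to 194 CPM in control hearts (median 62.5), against 0 to 0.114 CPM in control livers (median 0.0219) (log2FC = 10.64 ± 0.99, p-adj = 3.52e-07, edgeR). MYPN, a Z-disc protein, had no count in the 6 livers and was at least 230.2-fold higher in hearts, against a floor of 3 counts over the livers. The medians of MYBPC3, MYL2, MYL3 and TNNT2, all parts of the thick and thin filaments, were between 3062 and 3439 CPM in control hearts and between 0.636 and 1.94 CPM in control livers. TNNC1, the calcium sensor of the thin filament, was less one-sided, with a median of 2531 CPM in control hearts and 100.1 CPM in control livers. The 2 members that were not called, TPM1 and TPM2 with a log2FC of -0.26 and 0.06, encode tropomyosins. MYL4, a myosin light chain, went the other way, with 0.139 to 0.342 CPM in control hearts (median 0.189), against 18.2 to 56.1 CPM in control livers (median 34.1) (log2FC = -7.33 ± 0.32, p-adj = 1.99e-10, edgeR). Without control livers 3, 4 and 5 the median log2FC of the group was 10.4, with 37 members called higher in hearts, and TNNI1 at 14.47 was below ACTC1 at 15.38. Where the remaining livers held 0 to 3 counts of a gene, its value and rank there depend on the prior count.

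Genes of calcium handling, ion channels and gap junctions followed, with 31 of 39 called higher in control hearts, 1 higher in control livers and a median log2FC of 5.06. RYR2, the calcium release channel, had 603 to 981 CPM in control hearts (median 805), against 0 to 5.29 CPM in control livers (median 0.322) (log2FC = 9.38 ± 1.15, p-adj = 6.01e-06, edgeR). PLN, phospholamban, which restrains the calcium pump, had 1334 to 1665 CPM in control hearts (median 1515), against 0 to 7.84 CPM in control livers (median 0.446) (log2FC = 9.53 ± 1.3, p-adj = 1.66e-05, edgeR). ATP2A2, that pump, is used by many cell types and had 1228 to 1892 CPM in control hearts (median 1601), against 43.2 to 52.9 CPM in control livers (median 47.6) (log2FC = 5.06 ± 0.17, p-adj = 1.76e-11, edgeR). KCNJ3 and TRDN had the largest log2FC of the group over the 12 libraries, but without control livers 3, 4 and 5 the values were 14.91 and 13.82, against 15.05 for PLN and 14.49 for RYR2. Such values depend on the prior count where the remaining livers held 0 to 3 counts, and so does their order. KCNJ3, a subunit of the potassium channel through which the vagus nerve slows the heart, had 78.6 to 118 CPM in control hearts (median 91.5), against 0 to 0.3804 CPM in control livers (median 0) (log2FC = 10.6 ± 0.64, p-adj = 4.25e-09, edgeR). TRDN, triadin, which ties calsequestrin to the release channel, had 33.8 to 53.3 CPM in control hearts (median 44.6), against 0 to 0.266 CPM in control livers (median 0) (log2FC = 9.99 ± 0.59, p-adj = 3.39e-09, edgeR). SLC8A1, the sodium-calcium exchanger, had a median of 446 CPM in control hearts and 3.59 CPM in control livers (log2FC = 6.76 ± 0.28, p-adj = 1.25e-10, edgeR). The gap junction genes differed from each other: GJA5 was called higher in hearts with a log2FC of 3.01, while GJA1 was not called at -0.8. CACNA1D, a calcium channel subunit, was the member called higher in control livers, at a median of 0.2095 CPM in control hearts and 1.97 CPM in control livers. Without control livers 3, 4 and 5 the median log2FC of the group was 5.29, with 30 called higher in hearts.

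Of 11 natriuretic peptide and secreted cardiac protein genes, 8 were called higher in control hearts and 1 in control livers, with a median log2FC of 3.14. NPPA, atrial natriuretic peptide, a hormone that makes the kidney excrete sodium, had 2426 to 5627 CPM in control hearts (median 3672), against 0.0528 to 21.5 CPM in control livers (median 0.462) (log2FC = 9.52 ± 1.5, p-adj = 6.51e-05, edgeR). CORIN, the protease that cuts its precursor, had 31.9 to 50.8 CPM in control hearts (median 46.1), against 0 to 0.685 CPM in control livers (median 0.0164) (log2FC = 8.11 ± 0.69, p-adj = 1.50e-07, edgeR). MSTN encodes myostatin, which limits muscle growth. It had no count in the 6 livers and was at least 333-fold higher in hearts, against the floor of 3 counts. BMP10, a growth factor, was called higher in control livers, with 0 to 0.889 CPM in control hearts (median 0.259), against 0.859 to 7.66 CPM in control livers (median 3.66) (log2FC = -3.67 ± 0.83, p-adj = 0.00132, edgeR). The median log2FC of the group was 3.23 without control livers 3, 4 and 5, and the log2FC of NPPA was 15.44.

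Genes of muscle energy metabolism were called higher in control hearts for 26 of 38, higher in control livers for 2, and the median log2FC was 2.39. CKMT2, the creatine kinase of muscle mitochondria, had 207 to 298 CPM in control hearts (median 254), against 0 to 2.24 CPM in control livers (median 0.0328) (log2FC = 9.03 ± 1.0, p-adj = 2.22e-06, edgeR). FABP3, which carries fatty acids in muscle cells, had 1265 to 1951 CPM in control hearts (median 1586), against 2.66 to 22.1 CPM in control livers (median 4.41) (log2FC = 7.69 ± 0.61, p-adj = 7.49e-08, edgeR). OXCT1, which lets tissues burn ketone bodies, had 579.8 to 799 CPM in control hearts (median 682), against 4.33 to 13.5 CPM in control livers (median 10.4) (log2FC = 6.11 ± 0.27, p-adj = 2.31e-10, edgeR). Of the 38 genes 10 were not called, among them most enzymes of mitochondrial fatty acid oxidation. HADHB and ACADS were called higher in hearts, with a log2FC of 1.5 and 1.15. ACADS was 0.97 without control livers 1 and 6. HK2 and SLC27A1 were called higher in control livers, though with library size alone neither was, at a log2FC of -0.76 and -0.67. HK2, a hexokinase, had a median of 35.9 CPM in control hearts and 92.9 CPM in control livers, and SLC27A1, a fatty acid transporter, had a median of 7.16 CPM in control hearts and 15.6 CPM in control livers. The median log2FC of the group was 2.77 without control livers 3, 4 and 5.

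The TCA cycle and the respiratory chain differed less. Of 21 genes of the TCA cycle and pyruvate dehydrogenase, 16 were called higher in control hearts and 1 in control livers, with a median log2FC of 1.55. SUCLA2 and SUCLG2 encode alternative subunits of succinyl-CoA synthetase, and they moved in opposite directions. SUCLA2, of the form that makes ATP, had 101 to 115 CPM in control hearts (median 104), against 3.74 to 6.81 CPM in control livers (median 6.09) (log2FC = 4.25 ± 0.17, p-adj = 6.82e-11, edgeR). SUCLG2, of the form that makes GTP, had 25.7 to 37.8 CPM in control hearts (median 31.96), against 69.99 to 107 CPM in control livers (median 80.9) (log2FC = -1.39 ± 0.13, p-adj = 4.88e-07, edgeR). Of 53 nuclear genes of the respiratory chain and ATP synthase, 34 were called higher in control hearts and none in control livers, with a median log2FC of 1.17. NDUFS6 of complex I, CYCS, which is cytochrome c, and UQCRFS1 of complex III led them, with a log2FC of 3.21, 2.9 and 2.59. The summed level of these 53 genes was 9851 to 12007 CPM in control hearts, against 3960 to 4717 CPM in control livers. The nuclear counts are those of mixed tissue, in which fewer cells of a type and less RNA per cell cannot be told apart. With library size alone, the count of nuclear respiratory genes called higher in hearts was 47 and that of TCA cycle genes 18, and SUCLG2 was not called, at a log2FC of -0.87. Without control livers 3, 4 and 5 the count was 30 for the nuclear respiratory genes, with a median log2FC of 1.16, and 15 for the TCA cycle genes, with a median of 1.75.

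Of the 13 protein genes of the mitochondrial genome, 4 were called higher in control hearts and none in control livers, with a median log2FC of 0.61. The count of 4 is near the share of 26.9% called higher in hearts over all genes tested. COX1, a core subunit of cytochrome oxidase, took the most counts of any gene in every heart and had 88683 to 136057 CPM in control hearts (median 99241), against 12535 to 78975 CPM in control livers (median 55769.7) (log2FC = 1.09 ± 0.39, p-adj = 0.0226, edgeR). That call rests on few libraries: the log2FC of COX1 was 0.93 without control heart 2, 0.89 without control liver 2 and 0.95 without control liver 3, all below the threshold of 1. Without control livers 3, 4 and 5 it was 1.16 and was not called either. COX3 had a median of 39674 CPM in control hearts and 27349 CPM in control livers, and its log2FC was 0.67 (not called). COX2, a second core subunit of the oxidase, had a median of 38616 CPM in control hearts and 40891 CPM in control livers, and CYTB of complex III had a median of 33607 CPM in control hearts and 27094 CPM in control livers. The log2FC of ND1, ND2, ND4, ND5, ATP6, CYTB and COX2 lay between -0.0 and 1.01, and none of these genes was called. The order of COX2 and ND2 between the organs turned round under several settings. With library size alone 10 of the 13 were called higher in hearts, and none in livers. ND4L, ND6 and ND3 were called too, but ND4L overlaps ND4 and ND6 lies antisense to its neighbours, and as strand is not stated their reads are uncertain.

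**Figure D3:**
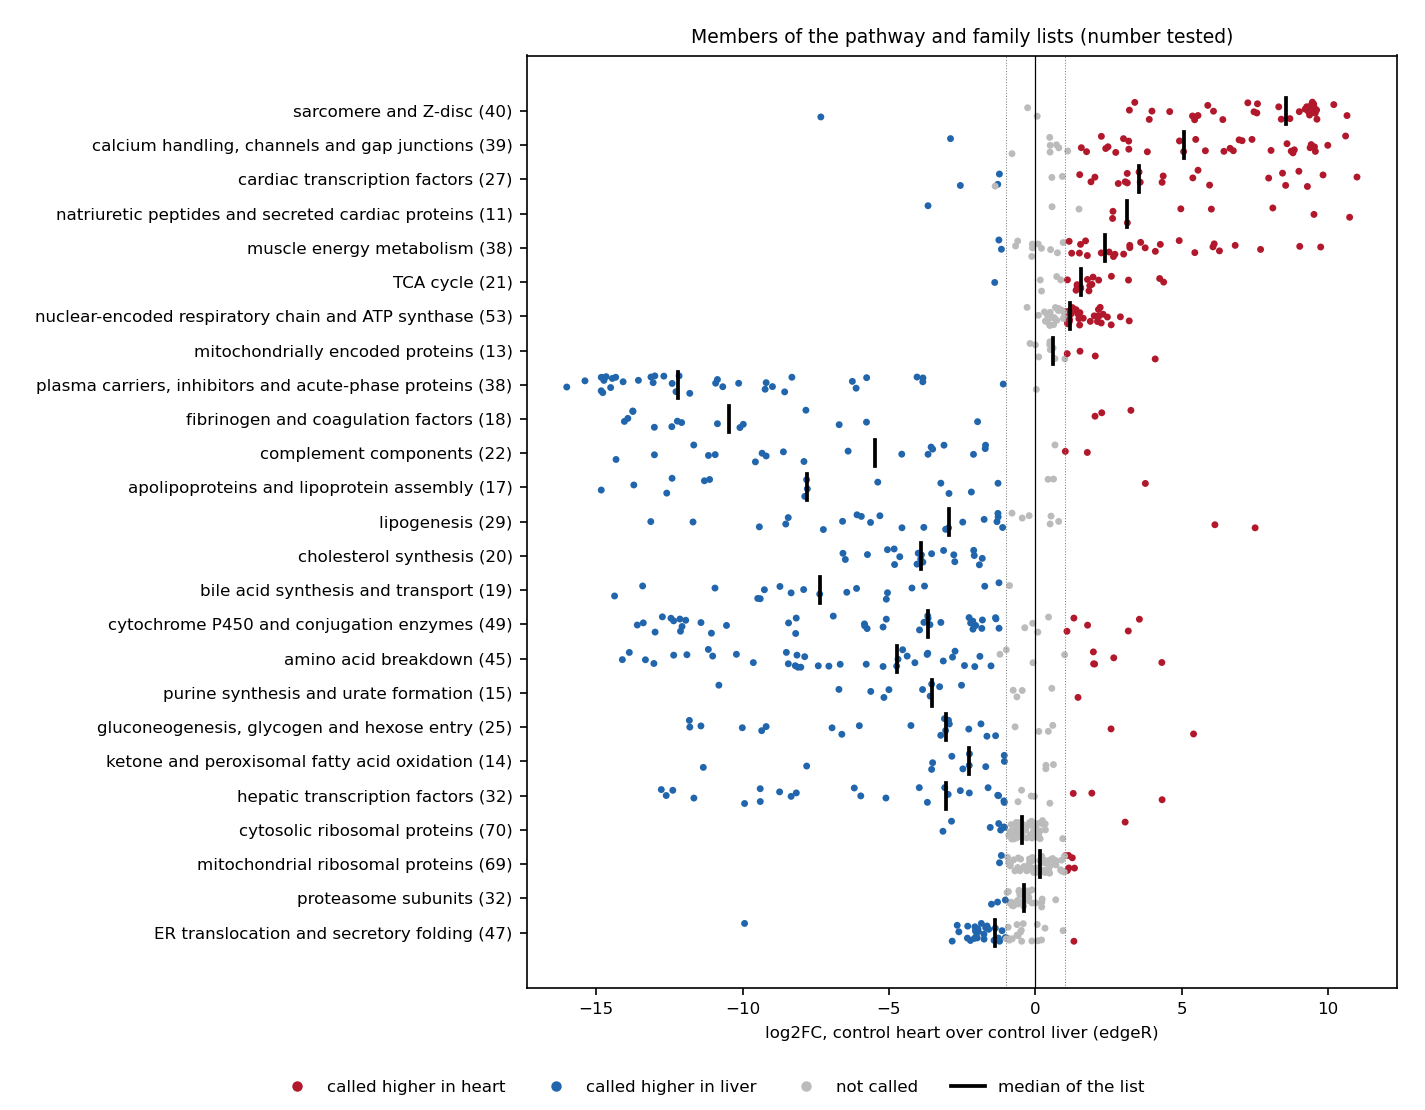
Log2FC of every tested member of the pathway and family lists, control heart over control liver. Each point is 1 gene, coloured by whether it was called higher in heart, called higher in liver or not called, dotted lines stand at a log2FC of 1 on either side of 0, the upright mark is the median of its list, and the number tested stands beside the name. Lists of the sarcomere and of calcium handling lie to the right with medians of 8.55 and 5.06, and plasma carriers and coagulation factors lie to the left with medians of -12.22 and -10.47.

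The liver-marked genes with the largest fold encoded secreted proteins for the most part. CPB2, a plasma carboxypeptidase that slows the breakdown of clots, had no count in the 6 hearts. It had 139 to 271 CPM in control livers and was at least 19389.9-fold higher there, against a floor of 3 counts over the hearts. AvBD10, an avian beta-defensin of innate defence, had 2 counts over the 6 hearts and was 63660.5-fold (95% counting interval 17622 to 525674) higher in livers. FETUB, a fetuin, lies beside its relative AHSG on chromosome 9. FETUB had 0 to 0.0891 CPM in control hearts (median 0.0102), against 899 to 1911 CPM in control livers (median 1110.3) (log2FC = -15.38 ± 0.6, p-adj = 6.32e-11, edgeR). AHSG, which keeps calcium phosphate in solution in plasma, had 0.433 to 0.9799 CPM in control hearts (median 0.547), against 7244 to 25595 CPM in control livers (median 15077) (log2FC = -14.73 ± 0.55, p-adj = 4.08e-11, edgeR). GC, the vitamin D-binding protein, lies on chromosome 4, 49905024 to 49917889 and had 0.212 to 0.846 CPM in control hearts (median 0.352), against 7589.7 to 14748 CPM in control livers (median 11442) (log2FC = -14.83 ± 0.51, p-adj = 2.32e-11, edgeR). PIT54, which binds free haemoglobin in birds, had 0.594 to 1.74 CPM in control hearts (median 0.851), against 14111 to 33549.5 CPM in control livers (median 30402) (log2FC = -14.78 ± 0.51, p-adj = 2.38e-11, edgeR). APOH, ORM1 and AvBD9 were also among them, with a log2FC of -14.83, -14.66 and -14.64. For each of these genes the highest heart was below 2 CPM.

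Plasma carriers, inhibitors and acute-phase proteins had the lowest median of the liver pathway lists: none was called higher in control hearts, 37 of 38 were called higher in control livers, and the median log2FC was -12.22. The 38 include both Ensembl genes with the symbol TTR. Among all genes tested 23.9% were called higher in livers. The summed level of the group was 201 to 303 CPM in control hearts, against 178553 to 365598 CPM in control livers. ALB, albumin, took the most counts of any gene in every liver. It lies on chromosome 4, 50337890 to 50357184 and had 4.71 to 8.36 CPM in control hearts (median 5.51), against 74755 to 199322 CPM in control livers (median 117377) (log2FC = -14.33 ± 0.49, p-adj = 2.01e-11, edgeR). TF, the iron carrier transferrin, had 27.8 to 59.3 CPM in control hearts (median 39.2), against 18081 to 36250.0 CPM in control livers (median 22869.8) (log2FC = -9.23 ± 0.35, p-adj = 3.90e-11, edgeR). VTN, vitronectin, an adhesive protein of plasma, had 1.22 to 4.799 CPM in control hearts (median 2.19), against 10286 to 28936 CPM in control livers (median 24647) (log2FC = -13.05 ± 0.55, p-adj = 1.18e-10, edgeR). The member that was not called was HGF, a growth factor for hepatocytes, at a log2FC of 0.03.

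Of 18 fibrinogen and coagulation genes, 3 were called higher in control hearts and 15 in control livers, with a median log2FC of -10.47. The 3 fibrinogen chains FGA, FGB and FGG, which polymerize into the clot, had a log2FC of -13.92, -13.74 and -14.04. FGB had 0.479 to 1.58 CPM in control hearts (median 0.69), against 4289 to 15800.0 CPM in control livers (median 12630.2) (log2FC = -13.74 ± 0.59, p-adj = 1.40e-10, edgeR). PLG, plasminogen, which dissolves clots, had 0.114 to 0.376 CPM in control hearts (median 0.325), against 2307 to 4806 CPM in control livers (median 3952) (log2FC = -13.75 ± 0.41, p-adj = 8.85e-12, edgeR). F11, a factor of the contact pathway, had no count in the 6 hearts and was at least 1302-fold higher in livers, against the floor of 3 counts. The 3 genes called higher in control hearts were F3, F13A1 and TFPI. F3 is tissue factor, which starts clotting on cells outside the vessels, and TFPI is its inhibitor. F3 had 3.603 to 7.27 CPM in control hearts (median 5.25), against 0.114 to 1.08 CPM in control livers (median 0.452) (log2FC = 3.26 ± 0.46, p-adj = 2.43e-05, edgeR). TFPI had 2.19 to 3.999 CPM in control hearts (median 3.33), against 0.131 to 1.14 CPM in control livers (median 0.923) (log2FC = 2.04 ± 0.44, p-adj = 9.95e-04, edgeR). F13A1, the clot-crosslinking subunit, had 11.2 to 53.7 CPM in control hearts (median 30.01), against 2.23 to 18.4 CPM in control livers (median 4.46) (log2FC = 2.27 ± 0.52, p-adj = 0.00149, edgeR).

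Complement genes were called higher in control livers for 19 of 22 and higher in control hearts for 2, with a median log2FC of -5.48. C3, the central component, had 10.6 to 79.98 CPM in control hearts (median 19.99), against 16203 to 37543 CPM in control livers (median 19265) (log2FC = -9.33 ± 0.72, p-adj = 5.09e-08, edgeR). C8A, of the membrane attack complex, had the largest fold, with 0 to 0.2004 CPM in control hearts (median 0.0224), against 599 to 1792 CPM in control livers (median 976) (log2FC = -14.32 ± 0.71, p-adj = 6.71e-10, edgeR). MBL2, a lectin that starts the cascade on sugars of microbes, had a median of 0.0354 CPM in control hearts and 347 CPM in control livers (log2FC = -13.01 ± 0.57, p-adj = 1.93e-10, edgeR). C1QA, C1QB and C1QC, which macrophages make, differed less, with a log2FC of -3.12, -3.56 and -3.51. C7, also of the attack complex, was called higher in hearts, with 185 to 489.9 CPM in control hearts (median 356), against 66.3 to 136 CPM in control livers (median 105) (log2FC = 1.77 ± 0.26, p-adj = 3.83e-05, edgeR). C4BPM was the other one, at a log2FC of 1.02, but it was below 1 without control heart 2 (0.94), control liver 1 (0.96), control liver 5 (0.99) or control liver 6 (0.96), and also without mitochondrial genes (0.97), without control livers 3, 4 and 5 (0.99) and without control livers 1 and 6 (0.87).

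Apolipoproteins and the genes of lipoprotein assembly were called higher in control livers for 14 of 17 and higher in control hearts for 1, with a median log2FC of -7.79. APOB, the frame of very low density lipoprotein, had 0.1701 to 1.11 CPM in control hearts (median 0.301), against 1779 to 2849 CPM in control livers (median 2630.5) (log2FC = -12.41 ± 0.56, p-adj = 2.40e-10, edgeR). MTTP, which loads lipid onto it, had 0.0471 to 0.139 CPM in control hearts (median 0.0901), against 148 to 293 CPM in control livers (median 198) (log2FC = -11.13 ± 0.31, p-adj = 6.82e-12, edgeR). APOC3 had a median of 0.111 CPM in control hearts and 1559.7 CPM in control livers (log2FC = -13.71 ± 0.27, p-adj = 7.40e-13, edgeR). APOA1, the main protein of high density lipoprotein, is known to be made in many tissues of birds. It had 225 to 724 CPM in control hearts (median 439.8), against 14058 to 24952 CPM in control livers (median 17648) (log2FC = -5.38 ± 0.36, p-adj = 1.14e-08, edgeR). VLDLR, the receptor that takes up triglyceride-rich lipoprotein, was called higher in control hearts, with 82.4 to 112 CPM in control hearts (median 101), against 3.898 to 9.09 CPM in control livers (median 7.27) (log2FC = 3.76 ± 0.2, p-adj = 1.02e-09, edgeR).

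Of 29 lipogenesis genes, 2 were called higher in control hearts and 21 in control livers, with a median log2FC of -2.96. FASN, fatty acid synthase, had 29.02 to 45.1 CPM in control hearts (median 30.8), against 1206 to 3255 CPM in control livers (median 2147) (log2FC = -6.09 ± 0.29, p-adj = 4.25e-10, edgeR). SCD, which puts the first double bond into the chain, had 0.753 to 20.1 CPM in control hearts (median 3.48), against 1008 to 5454 CPM in control livers (median 2748) (log2FC = -8.52 ± 1.0, p-adj = 3.67e-06, edgeR). ELOVL2, an elongase of long unsaturated chains, and MLXIPL, which switches on lipogenic genes when carbohydrate is plentiful, had the largest folds. ELOVL2 had 0 to 0.0668 CPM in control hearts (median 0.0216), against 146 to 384 CPM in control livers (median 267) (log2FC = -13.13 ± 0.49, p-adj = 3.84e-11, edgeR). MLXIPL had 0.0594 to 0.251 CPM in control hearts (median 0.131), against 294 to 783 CPM in control livers (median 434) (log2FC = -11.69 ± 0.42, p-adj = 3.16e-11, edgeR). ACACB and FABP4 were called higher in control hearts. ACACB makes the malonyl-CoA that restrains fatty acid entry into mitochondria, and had 13.4 to 28.6 CPM in control hearts (median 25.6), against 0 to 0.262 CPM in control livers (median 0.145) (log2FC = 7.51 ± 0.5, p-adj = 1.31e-08, edgeR). All 20 genes of cholesterol synthesis and its control were called higher in control livers, with a median log2FC of -3.90. SC5D, a desaturase near the end of the pathway, had 11.7 to 22.8 CPM in control hearts (median 13.2), against 389 to 2157 CPM in control livers (median 1609) (log2FC = -6.57 ± 0.44, p-adj = 1.23e-08, edgeR).

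Bile acid genes were called higher in control livers for 18 of 19, with a median log2FC of -7.36. SLCO1A2, a transporter of organic anions, had 3 counts over the 6 hearts and was 27515-fold (95% counting interval 9415 to 133426) higher in livers. CYP7A1, the rate-limiting enzyme of bile acid synthesis, had 0 to 0.0668 CPM in control hearts (median 0.0403), against 19.2 to 146 CPM in control livers (median 76.9) (log2FC = -10.94 ± 0.59, p-adj = 1.54e-09, edgeR). NR1H4, the bile acid receptor, had 0.0243 to 0.178 CPM in control hearts (median 0.0951), against 39.6 to 91.4 CPM in control livers (median 75.3) (log2FC = -9.4 ± 0.34, p-adj = 3.47e-11, edgeR). Of 49 cytochrome P450 and conjugation genes, 40 were called higher in control livers and 5 in control hearts, with a median log2FC of -3.67. CYP2C18 and SULT6B1L, a P450 and a sulfotransferase, had the largest folds, at a log2FC of -13.39 and -13.6. CYP1A2, which oxidizes planar aromatic compounds, had 0 to 0.2895 CPM in control hearts (median 0.0319), against 124 to 775 CPM in control livers (median 287) (log2FC = -12.14 ± 0.78, p-adj = 8.28e-09, edgeR). The 5 genes called higher in hearts were AOX1, AOX2, CYP1B1, GSTK1 and SULT4A1, with a log2FC between 1.08 and 3.55. GSTK1 was just below 1 without control liver 2. Genes of these families can share reads with close relatives, so that single values are uncertain.

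Enzymes of amino acid breakdown were called higher in control livers for 36 of 45 and in control hearts for 5, with a median log2FC of -4.74. HGD, of the tyrosine pathway, had 0 to 0.0456 CPM in control hearts (median 0.0102), against 202 to 456 CPM in control livers (median 307) (log2FC = -14.11 ± 0.48, p-adj = 2.12e-11, edgeR). AGXT, which clears glyoxylate, had 2 counts over the hearts and was 21799-fold (95% counting interval 6034 to 180012) higher in livers. The genes called higher in hearts serve proline, lysine, leucine and aspartate: PRODH, AASS, IVD, MCCC1 and GOT1. PRODH, proline dehydrogenase, had 47.6 to 78.1 CPM in control hearts (median 54.4), against 0.378 to 4.11 CPM in control livers (median 3.31) (log2FC = 4.32 ± 0.4, p-adj = 3.32e-07, edgeR). GOT1, an aminotransferase of the malate-aspartate shuttle, had 373 to 468 CPM in control hearts (median 417), against 78.1 to 153 CPM in control livers (median 92.7) (log2FC = 1.99 ± 0.17, p-adj = 1.36e-07, edgeR). In purine synthesis and urate formation, 10 of 15 genes were called higher in control livers and 1 in control hearts, with a median log2FC of -3.54. PRPS2, which makes the ribose phosphate that purines are built on, had 0.337 to 0.471 CPM in control hearts (median 0.408), against 553 to 891 CPM in control livers (median 753) (log2FC = -10.81 ± 0.22, p-adj = 7.40e-13, edgeR). XDH, the enzyme that forms urate, had 1.92 to 5.18 CPM in control hearts (median 2.49), against 196 to 572 CPM in control livers (median 271) (log2FC = -6.71 ± 0.43, p-adj = 7.76e-09, edgeR). ADA, adenosine deaminase, was called higher in hearts, at a log2FC of 1.46.

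Genes of glucose release, glycogen and hexose entry were called higher in control livers for 19 of 25 and in control hearts for 2, with a median log2FC of -3.06. GYS2, the glycogen synthase of liver, had 0 to 0.0445 CPM in control hearts (median 0.0216), against 47.3 to 118 CPM in control livers (median 89.5) (log2FC = -11.8 ± 0.36, p-adj = 9.69e-12, edgeR). SLC2A2, the low-affinity glucose carrier, had 0.0228 to 0.259 CPM in control hearts (median 0.0901), against 155 to 401 CPM in control livers (median 333) (log2FC = -11.42 ± 0.48, p-adj = 1.24e-10, edgeR). PCK2, the mitochondrial form of the enzyme that opens gluconeogenesis, had a median of 23.8 CPM in control hearts and 2694 CPM in control livers and PCK1, the cytosolic form, had a median of 0.215 CPM in control hearts and 47.9 CPM in control livers. FBP2 and PKLR were called higher in hearts, with a log2FC of 5.4 and 2.59. Of 14 genes of ketone synthesis and peroxisomal oxidation, 11 were called higher in control livers and none in control hearts, with a median log2FC of -2.25.

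Transcription factors also differed between the organs. Of 27 cardiac factors, 21 were called higher in control hearts and 3 in control livers, with a median log2FC of 3.54. NKX2-5, a homeodomain factor needed for heart formation, had 44.7 to 54.3 CPM in control hearts (median 48.8), against 0 to 0.494 CPM in control livers (median 0) (log2FC = 9.29 ± 0.68, p-adj = 3.31e-08, edgeR). TBX5, a T-box factor of the heart and forelimb, had 31.8 to 51.4 CPM in control hearts (median 46.4), against 0 to 0.3804 CPM in control livers (median 0.0351) (log2FC = 9.0 ± 0.54, p-adj = 4.25e-09, edgeR). TBX20, of the same family, had 117 to 156 CPM in control hearts (median 135), against 0 to 1.14 CPM in control livers (median 0.319) (log2FC = 8.44 ± 0.64, p-adj = 4.38e-08, edgeR). The median liver held less than 1 CPM of each of these 3 factors. IRX4, a ventricular factor, had 59.2 to 75.3 CPM in control hearts (median 64), against 0 to 0.304 CPM in control livers (median 0) (log2FC = 9.83 ± 0.57, p-adj = 2.92e-09, edgeR). MYOCD, a partner of SRF on muscle genes, had 64.9 to 79.9 CPM in control hearts (median 68.1), against 1.32 to 2.23 CPM in control livers (median 1.65) (log2FC = 5.38 ± 0.16, p-adj = 8.33e-12, edgeR). HAND1 had no count in the 6 livers and was at least 397-fold higher in hearts, against the floor of 3 counts. ANKRD1, a nuclear and sarcomeric ankyrin protein, was the remaining heart-marked member, at a log2FC of 7.97. GATA4, known from both heart and liver development, had 142 to 198 CPM in control hearts (median 171), against 4.95 to 14.3 CPM in control livers (median 7.17) (log2FC = 4.33 ± 0.26, p-adj = 5.12e-09, edgeR). Its relative GATA6 and the T-box repressors TBX2 and TBX3 were called higher in livers, with a log2FC of -1.28, -1.23 and -2.56. With library size alone GATA6 and TBX2 were not called, at -0.72 and -0.64, and TBX2 was not called without control livers 3, 4 and 5 either, at -0.92. Without control livers 3, 4 and 5 the median log2FC of the cardiac factors was 3.29 and 19 were called higher in hearts. The log2FC of NKX2-5 was then 13.98.

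Of 32 hepatic factors, 24 were called higher in control livers and 3 in control hearts, with a median log2FC of -3.04. HNF4A, a nuclear receptor that acts on many liver genes, had 0 to 0.123 CPM in control hearts (median 0.0309), against 79.2 to 241 CPM in control livers (median 128) (log2FC = -11.66 ± 0.52, p-adj = 2.36e-10, edgeR). FOXA2 and FOXA1 open chromatin in the embryonic endoderm. FOXA2 had no count in the 6 hearts and was at least 2094-fold higher in livers, against the floor of 3 counts. FOXA1 had 2 counts over the hearts and was 7382-fold (95% counting interval 2043 to 60961) higher in livers. NR1I3, a receptor for foreign compounds, had 2 counts over the hearts and was 8954-fold (95% counting interval 2478 to 73943) higher in livers. Other liver-marked factors were CREB3L3, NR0B2, NR1H4 and NR5A2, with a log2FC between -9.93 and -5.96. GATA4, BHLHE40 and PPARD were the 3 members of the hepatic list that were called higher in hearts.

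**Figure D4:**
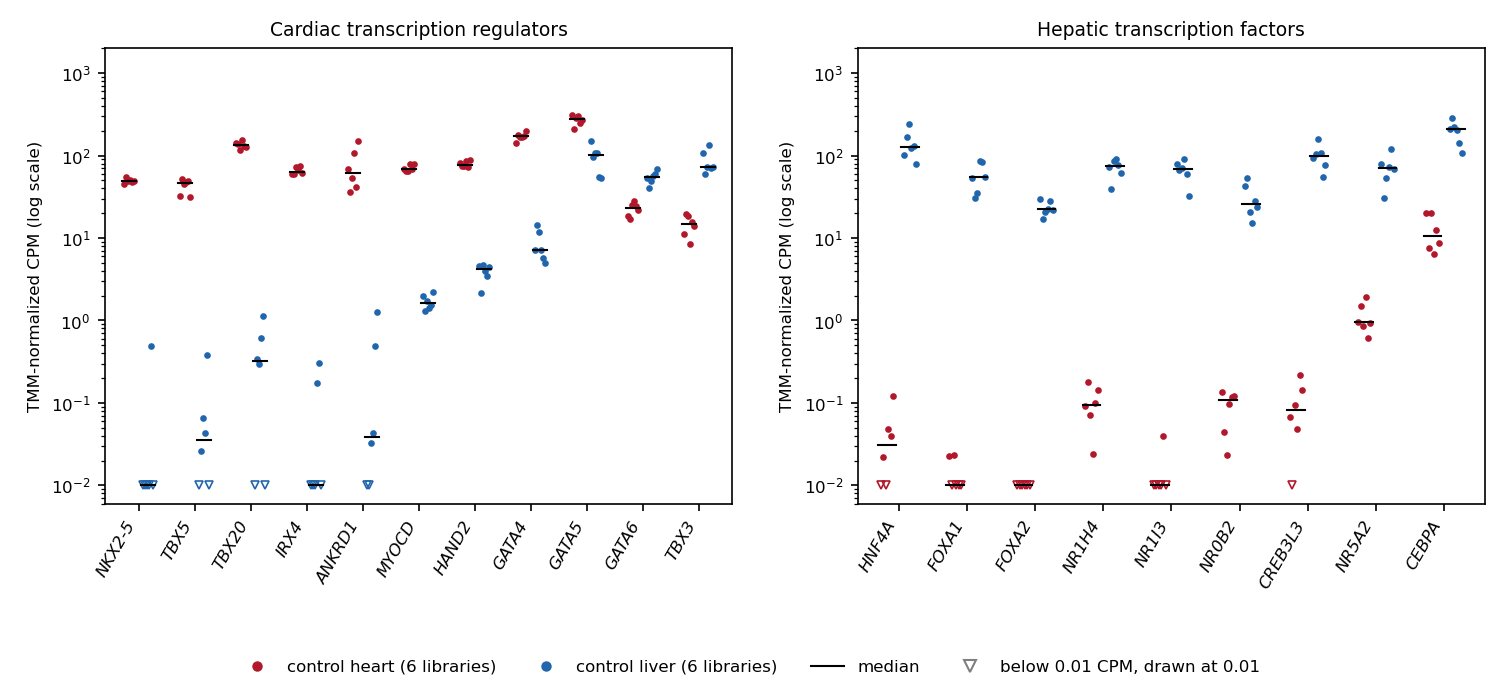
Levels of cardiac and hepatic transcription factors. The vertical axis is TMM-normalized CPM on a log scale, each point is 1 library, the line is the median, and open triangles stand for levels below the lower end of the scale. GATA4, GATA5, GATA6, HAND2, TBX3 and CEBPA, which are not tissue-marked, are shown for comparison, and control hearts are drawn left of control livers. The tissue-marked factors were chosen by a rule that allows no overlap between the organs. The other 6 do not overlap either, as is so for 52.9% of all genes tested.

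Genes that every cell needs differed less. Of 70 cytosolic ribosomal protein genes, 1 was called higher in control hearts and 7 in control livers, with a median log2FC of -0.45. RPL3L, a form of a ribosomal protein found in striated muscle, was the member called higher in hearts, with 3.15 to 5.65 CPM in control hearts (median 4.29), against 0 to 0.976 CPM in control livers (median 0.642) (log2FC = 3.07 ± 0.66, p-adj = 8.79e-04, edgeR). Of 69 mitochondrial ribosomal protein genes 6 were called higher in control hearts and 2 in control livers, and of 32 proteasome genes none was called higher in hearts and 3 were in livers. With library size alone the median of the cytosolic ribosomal genes was 0.092 and that of the proteasome genes 0.10, so that their direction turned round. Of the mitochondrial ribosomal genes 21 were then called higher in control hearts and none in control livers. Their count higher in hearts was 3 without control livers 3, 4 and 5, and their count higher in livers was 4 without control liver 2, 3 or 4 and without mitochondrial genes. The genes of secretion stood apart from these: 28 of 47 genes of protein entry into the endoplasmic reticulum and folding there were called higher in control livers and 1 in control hearts, with a median log2FC of -1.37. P4HB, a protein disulfide isomerase, had 131 to 162 CPM in control hearts (median 141), against 633 to 1485 CPM in control livers (median 926) (log2FC = -2.84 ± 0.22, p-adj = 6.44e-08, edgeR). SEC11C, of the peptidase that removes signal peptides, had 5.58 to 9.599 CPM in control hearts (median 6.798), against 9.601 to 68.03 CPM in control livers (median 48.03) (log2FC = -2.67 ± 0.36, p-adj = 1.38e-05, edgeR). SRP9, of the signal recognition particle, was called higher in hearts, at a log2FC of 1.32.

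Enzymes and carriers that exist in a muscle form and a liver form were compared as pairs. Of 32 pairs, 18 had both genes in the count table, and for 10 of them the muscle form was called higher in control hearts and the liver form in control livers. The share of the muscle form is given as a percentage of the summed CPM of the pair, not corrected for gene length. In 13 pairs this share was higher in every heart than in every liver, in 1 it was lower, and in 4 the organs overlapped. The levels of 52.9% of all single genes tested did not overlap either, and no such share was computed for other ratios of genes. For fatty acid-binding proteins the share of FABP3 over FABP1 had a median of 99.8% in control hearts and 1.28% in control livers. For phosphofructokinase the share of PFKM over PFKL had a median of 94.98% in control hearts and 4.18% in control livers. Lactate dehydrogenase was less complete, since the share of LDHB over LDHA was 95.7 to 97.96% in control hearts, against 18.1 to 53.1% in control livers. Acetyl-CoA carboxylase kept both forms in the heart: the share of ACACB over ACACA was 21.9 to 35.1% in control hearts, against 0 to 0.0332% in control livers. The retinoid X receptors ran the other way, as the share of RXRG over RXRA was 10.4 to 25.8% in control hearts, against 34.6 to 65.8% in control livers.

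**Figure D5:**
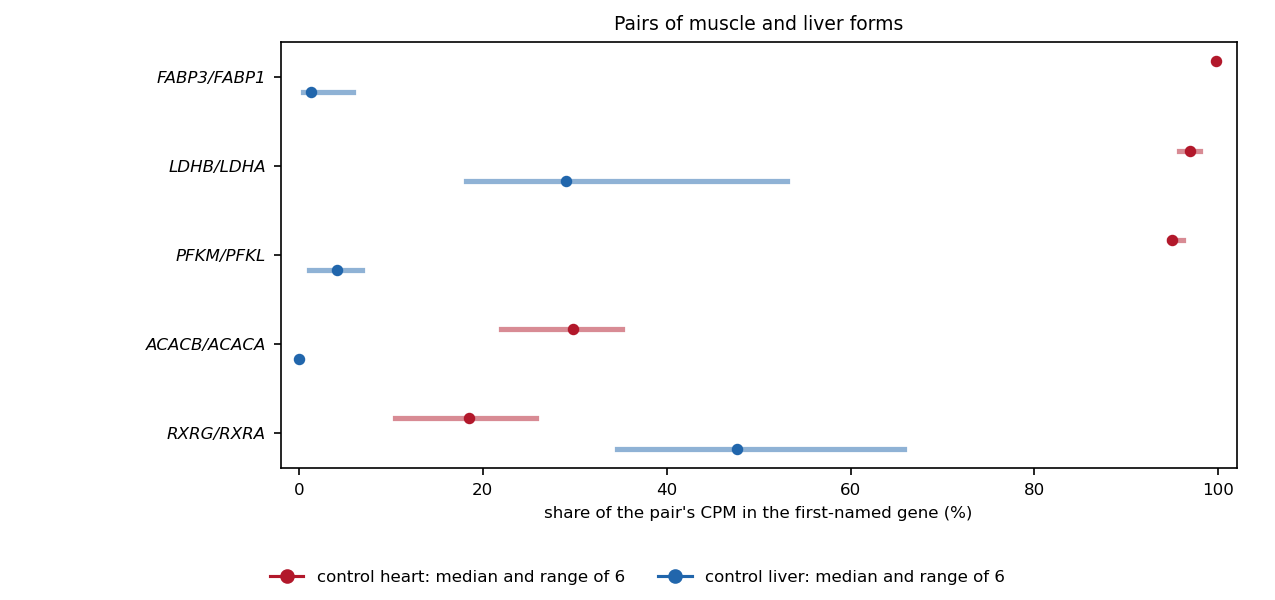
Share of the first-named gene in the pairs of a muscle form and a liver form that are described in the text. The horizontal axis is the percentage of the summed CPM of the pair, points are medians and bars the range of 6 libraries, and control hearts are drawn above control livers in each row. FABP3 and PFKM hold more than 94% of their pairs in every heart and less than 7% in every liver, and RXRG holds a smaller share in hearts than in livers.

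Markers of other cell types were found in both organs. All 13 cardiomyocyte markers tested were called higher in control hearts and all 15 hepatocyte markers in control livers. The hepatocyte markers include both Ensembl genes with the symbol TTR, at a log2FC of -8.98 and -13.56. Among all genes tested 26.9% were called higher in hearts and 23.9% higher in livers. Without control livers 3, 4 and 5 there were again 13 cardiomyocyte and 12 fibroblast markers called higher in hearts. Fibroblast markers were higher in hearts for 12 of 14, and the other 2 were not called, with a median log2FC of 2.57. COL3A1, a fibrillar collagen, had 1081 to 1782 CPM in control hearts (median 1294), against 97.6 to 239 CPM in control livers (median 115) (log2FC = 3.23 ± 0.26, p-adj = 8.13e-08, edgeR). Macrophage markers were higher in livers for 11 of 13, with none higher in hearts and a median log2FC of -3.12. MARCO, a scavenger receptor of macrophages, had 5.43 to 56.8 CPM in control hearts (median 20.8), against 923 to 1493 CPM in control livers (median 1083) (log2FC = -5.61 ± 0.57, p-adj = 9.40e-07, edgeR). TIMD4, which recognizes dying cells, had 1.88 to 4.81 CPM in control hearts (median 4.35), against 119.6 to 294 CPM in control livers (median 191) (log2FC = -5.72 ± 0.33, p-adj = 2.92e-09, edgeR). The summed level of the fibroblast list was 2836 to 4361 CPM in control hearts, against 523 to 971 CPM in control livers. That of the macrophage list was 1081 to 2078 CPM in control hearts, against 4195 to 6573 CPM in control livers. Neither sum overlapped between the organs, as is so for the levels of 52.9% of all single genes tested. Lymphocyte markers were called higher in control livers for 7 of 10 and in hearts for none, and their sum overlapped, at 26.1 to 162 CPM in control hearts, against 80.8 to 259 CPM in control livers. Of 10 smooth muscle and pericyte markers 6 were called higher in control hearts and 1 in control livers, and of 6 cholangiocyte markers 1 was higher in hearts and 4 in livers. Of 7 erythrocyte markers 5 were called higher in control hearts and none in control livers, and their sum was 299.8 to 1202 CPM in control hearts, against 187 to 674 CPM in control livers. Their count of 5 was 2 without control heart 6 or control liver 3, 3 without control heart 3 or control liver 2, 3 without mitochondrial genes and 2 without control livers 3, 4 and 5. Endothelial markers split: 10 of 18 were called higher in control hearts and 3 in control livers, the 3 being STAB1, STAB2 and LYVE1, known from sinusoidal and lymphatic vessels. STAB2 had 0.413 to 1.86 CPM in control hearts (median 0.742), against 46.6 to 88.5 CPM in control livers (median 70.3) (log2FC = -6.22 ± 0.35, p-adj = 2.52e-09, edgeR). EMCN, of vessel lining cells, had 69.02 to 94.1 CPM in control hearts (median 88.6), against 2.55 to 4.77 CPM in control livers (median 3.49) (log2FC = 4.61 ± 0.17, p-adj = 4.42e-11, edgeR). ADIPOQ, a hormone of fat cells, was heart-marked, with 246 to 419.8 CPM in control hearts (median 329), against 1.41 to 5.44 CPM in control livers (median 3.12) (log2FC = 6.81 ± 0.36, p-adj = 1.08e-09, edgeR), and 3 of the 8 adipocyte markers were called higher in livers. What part of any of these differences comes from the cell makeup was not tested.

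The spread between birds was larger in livers. Over the 353 genes of at least 100 CPM in both organs, the SD of log2 CPM between libraries had a median of 0.138 in control hearts and 0.324 in control livers, and 318 of the 353 genes had the larger SD in livers. The heart-marked genes of at least 100 CPM had a median SD of 0.201 in control hearts, against 0.158 for all genes of that level there. The liver-marked genes had a median SD of 0.482 in control livers, against 0.386 for all genes of that level there. SAA, an acute-phase protein, varied most, with 1.597 to 12.6 CPM in control hearts (median 5.7), against 38.02 to 7875 CPM in control livers (median 448). The next in livers were PCK1, with 3.70 to 379 CPM, MT4, a metallothionein, with 27.8 to 578 CPM, CHIA, a chitinase, with 7.25 to 248 CPM, and CYP2C18, with 83.0 to 2267 CPM. Among heart-marked genes TCAP, a cap protein of titin, varied most in hearts, with 97.5 to 407 CPM. TMEM121 had 100.05 to 483 CPM, MB 522 to 1501 CPM, NPPA 2426 to 5627 CPM and TEDC1 107 to 284 CPM in control hearts. TMEM121 and TEDC1 overlap on chromosome 8, at 3882994 to 3940881 and 3924903 to 3987532. As strand is not stated, their reads may not be separate. The genes named here for their spread were chosen by a rule that allows no overlap in level between the organs.

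Some liver-marked genes lay side by side on the chromosomes. In the order of genes in the table, 12 runs of 3 or more neighbouring liver-marked genes were found, with 41 genes in all, and no such run of heart-marked genes. In pairs or longer runs there were 46 of 315 heart-marked genes and 119 of 459 liver-marked genes. The liver-marked set is the larger, and the number of neighbours to be found in random sets of these sizes was not computed. The fibrinogen genes FGB, FGA and FGG lie together on chromosome 4, 19771510 to 19804640 (GRCg7b). APOA5, APOA4, APOC3 and APOA1 lie on chromosome 24, 5159617 to 5168282. AHSG, FETUB, an unnamed gene and KNG1 lie on chromosome 9, 15834135 to 15887314. Neighbours of this kind are often products of gene duplication, and reads of near copies can be split between them.

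Genes without a symbol made up 51 of the heart-marked and 108 of the liver-marked genes. Those named here were chosen after their values were seen, as the 3 with the highest mean level in each organ. ENSGALG00010010295 lies on chromosome 3, 39680179 to 39682760, where RefSeq places ACTA1, skeletal muscle actin. It had 244 to 935 CPM in control hearts (median 479.8), against 0.607 to 4.22 CPM in control livers (median 1.63) (log2FC = 7.94 ± 0.54, p-adj = 1.55e-08, edgeR). ENSGALG00010012414, at the RefSeq position of CMYA5, had a log2FC of 8.58, and ENSGALG00010028735 on chromosome 28, with no RefSeq match, had 9.16. In livers, ENSGALG00010026205 on chromosome 27, at the position of A2ML4, had 0.1596 to 0.869 CPM in control hearts (median 0.351), against 5838 to 16836 CPM in control livers (median 9860.4) (log2FC = -14.68 ± 0.59, p-adj = 8.39e-11, edgeR). ENSGALG00010016177 on chromosome 9 and ENSGALG00010022972 on chromosome 1, at the positions of HRG and A2M, had a log2FC of -14.72 and -13.69.

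A pair of common reference genes was looked up after the other values were seen, and 1 of them was called. ACTB, cytoplasmic actin, had 811 to 1169 CPM in control hearts (median 933), against 3960.4 to 6852 CPM in control livers (median 4732) (log2FC = -2.41 ± 0.2, p-adj = 1.28e-07, edgeR). GAPDH, of glycolysis, had 2489.5 to 3697 CPM in control hearts (median 2822), against 1751 to 3520.0 CPM in control livers (median 2560.1) and was not called (log2FC = 0.23 ± 0.2, p-adj = 0.338, edgeR).

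The comparison was repeated in the Sal-exposed birds, whose 6 hearts and 6 livers share no library with the control comparison. In that fit 6585 of 14006 genes were called (47.0%). Of the genes called higher in control hearts 2666 were called higher in Sal-exposed hearts as well, which is 70.2% of the control list and 82.5% of the Sal-exposed list. Of those called higher in control livers 2504 were shared, which is 74.2% of the control list and 74.7% of the Sal-exposed list. All 315 heart-marked genes, chosen for their large folds, were called higher in Sal-exposed hearts, and 457 of the 459 liver-marked genes were called higher in Sal-exposed livers. The marking rule gave 313 heart genes there, of which 267 were shared, which is 85.3% of that list and 84.8% of the control list. It gave 427 liver genes, of which 393 were shared, which is 92.0% of that list and 85.6% of the control list. Of the genes called in both fits, 7 were called in opposite directions.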

How the data were processed

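RNA-seq of chicken heart and liver was analysed here. Per the methods, libraries were made with a dual-mode mRNA kit from RNA with a RIN above 7 and sequenced as paired reads. The authors aligned the reads with STAR to GRCg7b and quantified genes with RSEM, and the deposited table holds raw counts for 15051 Ensembl genes, 11779 of them with a symbol. Program versions are not given in the sources used here. Each library was placed in its group by its title and library name, and 12 count columns that match no sample of the series were not used. The authors' tables of Sal-exposed against control birds hold log2 fold changes, standard errors, Wald statistics, p-values and adjusted p-values, and were not used except for gene positions. RefSeq names of the same assembly served to match older symbols and the positions of unnamed genes.

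The tools used were edgeR 4.0.16 on limma 3.58.1 in R 4.3.3, and for the alternatives sva 3.50.0 and DESeq2 1.42.0. Low genes were removed with filterByExpr (min.count of 10, min.total.count of 15), and the rest were scaled by TMM and compared by the quasi-likelihood test, with Benjamini-Hochberg adjustment over all genes tested. Values beside log2FC are standard errors. Values such as a share of counts were tested by two-sided exact permutation (924 arrangements of 6 and 6), and same-numbered pairs by sign flips over 64, where the smallest p is 0.0312. Replicate numbers were not used as pairs, since no source used here says that organs of one number share a bird. The main fit and the permutation tests therefore leave out that the hearts and livers of a group came from the same birds. Over 66 pairs of libraries, chi-square divided by its degrees of freedom was at least 13.1, so that none agreed within sampling noise. Where a gene had no count in one organ, its fold is a bound against 3 counts over the group, and with 1 to 3 counts it is a ratio with an exact interval of counting error alone.

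The text names the 10 marked genes with a symbol and at least 100 CPM with the largest fold in each direction, the 10 with the most counts in each organ, the members of each list with the largest fold or called against it, the marked transcription factors and the 5 most variable marked genes of each organ. Genes of the lists and pairs named beyond these, with ACTB, GAPDH and the unnamed genes, were chosen after their values were seen. The members, lists and pairs were chosen with earlier results of these data known. Some genes that the rule picks are not reported here. A planned count of promoter motifs was not run, because no promoter sequences were at hand.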

Additional observations from a re-analysis of the deposited data

Results flagged for a closer look

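Of 322 groups of 6 values examined, 23 had 1 library far from the other 5, where chance gives about 1 in 20. That rate is no yardstick for this count. Some of the genes were named for a large SD in these same libraries, among them the flagged MB, TEDC1, CHIA and CYP2C18. Genes measured in one library are also not independent. The groups were library measures, 5 pair shares and the named genes with a mean of at least 1 CPM in that organ. Control liver 2 was low for several genes of secreted proteins: FGB had 4289 CPM, against 11175 to 15800.0 CPM in the other 5, and FGG had 2664 CPM, against 9625 to 16881 CPM in the other 5. In the same library VTN had 10286 CPM, KNG1 had 934 CPM, CHIA had 7.25 CPM, GYS2 had 47.3 CPM and SEC11C had 9.601 CPM, all below the other 5 livers. PKLR at 36.8 CPM and PRODH at 0.378 CPM were low in control liver 6. In control liver 4, CYP2C18 had 2267 CPM, against 83 to 213 CPM in the other 5, and VLDLR was low at 3.898 CPM. In control liver 5, MB had 6.88 CPM, against 0 to 0.788 CPM in the other 5, and the share of FABP3 over FABP1 was 5.92%.

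Among hearts, MB was low in control heart 4, at 522 CPM, against 1069.8 to 1501 CPM in the other 5. MYH7B was high in control heart 2, at 1226 CPM, against 604 to 768 CPM in the other 5. Control heart 1 was low for ACACB at 13.4 CPM, for TEDC1 at 107 CPM and for TNNC1 at 1928 CPM. HGF was high there, at 3.76 CPM, against 2.21 to 2.59 CPM in the other 5. Control heart 6 was low for AASS at 71.03 CPM, for EMCN at 69.02 CPM and for GJA1 at 21.4 CPM, and high for FASN at 45.1 CPM.

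The difference between the organs was not the same size in Sal-exposed and control birds for 47 of 189 named genes, by the interaction of organ and exposure over the 24 libraries (edgeR, adjusted p of at most 0.05 over 14632 genes, of which 2370 passed). Some of the named genes were chosen for the largest folds in these same control libraries. A gap chosen for its size can be smaller in other libraries through that choice alone, and its part here was not tested. The values are the log2FC of heart over liver in Sal-exposed birds minus that in control birds, and a positive value on a liver gene means a smaller gap in the exposed birds. Among carriers and other plasma proteins they were 3.0 for ALB, 3.19 for AHSG, 4.09 for FETUB, 3.13 for GC, 3.64 for APOH, 3.64 for PIT54, 3.28 for ORM1, 2.77 for KNG1 and 2.32 for VTN. For clotting and complement they were 2.66 for FGA, 2.63 for FGB, 2.68 for FGG, 2.72 for PLG, 5.04 for CPB2, 3.21 for C8A and -0.77 for C4BPM. For lipoproteins and lipids they were 1.76 for APOA4, 1.76 for APOA5, 1.83 for APOB, 2.46 for APOC3, 1.48 for MTTP, 2.21 for SC5D and -3.06 for ACACB. Other liver-marked genes had 4.49 for AvBD9, 4.81 for AvBD10, 4.91 for CHIA, 3.21 for HGD, 3.28 for NR1I3, 3.69 for SLCO1A2 and 2.57 for SULT6B1L. The unnamed liver genes had 3.31 for ENSGALG00010016177, 2.51 for ENSGALG00010022972 and 3.15 for ENSGALG00010026205. Genes higher in hearts had 1.45 for ADIPOQ, 1.8 for FABP3, 2.78 for MYH7B, 3.82 for NKX2-5, 1.57 for PRODH, 3.09 for SMPX, -0.88 for SUCLA2 and 3.2 for TNNC1, and SEC11C of secretion had 1.8. TPM2, which was not called between the control organs, had 1.22. Mitochondrial genes had 2.18 for ATP6, 2.53 for COX2, 1.83 for COX3 and 2.52 for ND1. Where an organ held 0 to 3 counts of a gene, as for CPB2 and AvBD10 in control hearts, the value depends on the prior count and is no bound. The control log2FC of a liver gene is set against traces in hearts: the highest control heart had 1.74 CPM of PIT54, 0.846 CPM of GC and 0.365 CPM of APOH. The control log2FC of a heart gene has the traces in livers as its denominator. Without control livers 3, 4 and 5 it was 12.3 for MYH7B, 13.98 for NKX2-5 and 15.35 for SMPX. In Sal-exposed birds the log2FC was 12.42, 13.13 and 12.67. For a gene with 0 to 3 counts over control livers 1, 2 and 6, the value without the other livers depends on the prior count and is no bound. The interaction was not fitted without these livers, so these values do not show whether it holds there. For ADIPOQ, FABP3, PRODH, TNNC1 and SUCLA2 the control log2FC was then 7.04, 8.22, 4.51, 4.87 and 4.18. In Sal-exposed birds it was 8.28, 9.53, 5.92, 7.81 and 3.38. The liver-marked genes together took 0.0489 to 0.146% of the counts in Sal-exposed hearts and 0.113 to 0.216% in control hearts, and 35.4 to 41.7% in Sal-exposed livers and 41.5 to 49.3% in control livers. Their median share was lower in exposed birds in both organs, at 0.127 against 0.174% in hearts and 38.3 against 44.3% in livers. For a liver gene, a lower level in hearts makes the gap larger and a lower level in livers makes it smaller. The heart-marked genes took 4.48 to 14.2% in Sal-exposed hearts and 11.7 to 12.6% in control hearts. The part of these library differences in the single values was not tested.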

How the results depend on the processing

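The count of genes called between the organs was 7172, and lay between 5524 (a test against a log2FC of 1) and 9705 (adjusted p alone) over the alternatives tried, among them DESeq2 with 7318, upper-quartile scaling with 7196 and 3 surrogate variables with 7710. Leaving out 1 library at a time gave 7099 to 7485. Of 774 tissue-marked genes the alternatives gave 603 to 1049, except that a minimum mean of 1 CPM in place of 10 gave 1178. With the replicate block 7012 genes were called, 6831 of them shared with the fit without it, and 800 were marked, 767 of them shared. Hearts and livers of one number deviated together with r between -0.03 and 0.21 over the 6 pairs, and 3 of 6 hearts correlated best with the liver of their own number, so that whether the numbers pair the organs is not settled. Library size alone moved the split of the calls towards hearts, as given above. Called members of the lists with a set direction numbered 461 in that direction, and 446 to 473 over the alternatives. After seeing the data, 2 further alternatives were chosen: 6981 genes were called without control livers 3, 4 and 5, and 7562 without control livers 1 and 6.

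The share of counts in the 20 most abundant genes was 47.3% ± 3.46 in control hearts and 44.4% ± 8.11 in control livers (SD, n = 6 each, p = 0.472, two-sided exact permutation test). The difference of 2.91 percentage points reversed to -5.34 with the 100 most abundant genes and to -25.3 without mitochondrial genes. The difference in genes with at least 1 count was 704 by the replicate block too, where p was 0.0625 by an exact sign-flip test, and it lay between 402 and 837 when 1 library was left out. The lower value came without control liver 6. When a heart was left out, p was between 0.0519 and 0.0671 (exact permutation test).

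The median log2FC of 4 lists turned round. With library size alone it was 0.092 for cytosolic ribosomal proteins, 0.10 for proteasome subunits, 0.34 for thrombocyte markers and 0.44 for adipocyte markers. For adipocyte markers it was also 0.052 with DESeq2 and 0.084 with upper-quartile scaling, and lay between -0.43 and 0.24 when 1 library was left out. For thrombocyte markers it was 0.0072 without control livers 3, 4 and 5. Among named genes that were not called, the log2FC of ND2 turned positive with DESeq2 (0.019), upper-quartile scaling (0.042), library size alone (0.64), the replicate block (0.23) and without control livers 1 and 6 (0.42), and lay between -0.24 and 0.27 when 1 library was left out. That of COX2 lay between -0.10 and 0.38 when 1 library was left out. Without mitochondrial genes it was -0.035 for HGF and -0.0025 for TPM2, and when 1 library was left out it lay between -0.13 and 0.23 for HGF and between -0.027 and 0.13 for TPM2. COX1 was called, but not with the replicate block, at a log2FC of 1.27. The causes of these changes were not tested. At 31.4 to 42.3 M counts per library, a gene with 0 to 3 counts over the 6 libraries of an organ gives only a bound or a ratio with a wide interval.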
